A study of Rattus norvegicus with 6 samples.

Results

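The AP-1 family is described here by its 7 Fos and Jun genes, Fos, Fosb, Fosl1, Fosl2, Jun, Junb and Jund, which were taken by name from a table of 26126 entries. The libraries came from H9c2 cells, a clonal myoblast line derived from embryonic rat heart. In the 3 PERK libraries (adPERK in the labels) the cells carried an adenovirus for PERK, the endoplasmic reticulum kinase encoded by Eif2ak3. In the 3 control libraries they carried a control adenovirus. The cells of both groups went through simulated ischemia-reperfusion, in a buffer of pH 6.2 with 2-deoxyglucose and lactate, in a chamber flushed for 30 min with 95% nitrogen and 5% carbon dioxide and then sealed for 1.5 to 3.5 h. No source used here gives the length of reperfusion or the time from infection to harvest. The comparison addresses how transcripts after this treatment differ with PERK overexpression. Nothing in the labels says that replicates were separate cultures, so their spread may be technical.

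AP-1 is a transcription factor made of 2-protein complexes. Fos and Jun proteins each carry a basic region that touches DNA and a leucine zipper that holds the partners together. Jun proteins can pair with one another, while Fos proteins need a Jun partner. In most cells Fos, Fosb, Jun and Junb are immediate early genes, transcribed within minutes of serum, stress or MAP kinase signalling without new protein synthesis, and their mRNAs are short-lived. Fosl1 and Fosl2 usually follow later, and Jund is expressed more steadily. In the heart, Fos and Jun are classical early responders to ischemia-reperfusion and to hypertrophic stimuli.

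The family was singled out with the knowledge that Fos and other immediate early genes stood higher in the PERK libraries of this same table. The members' differences between the groups are therefore given as a description, without p-values, and support nothing by themselves. Total counts ranged from 89798433 to 119087414 in PERK libraries and from 77923398 to 111052659 in control libraries. Small counts clustered at steps of about 6, so fewer independent fragments may lie behind a count than its size implies. Control replicate 3 stood apart, with 19287 entries above 0 against 15377 to 16685 in the other 5 libraries. Eif2ak3 itself was not higher in the PERK libraries, at 26.5, 26.5 and 26.0 CPM (counts scaled to library totals by the TMM method), against 26.4, 26.9 and 24.0 CPM in control libraries (edgeR log2 fold change 0.03 with an SE of 0.06, adjusted p = 0.887). Whether the count covers the transgene was not tested, and every direction below rests on the labels. All 8 myoblast markers listed were detected, and edgeR called 1 of them, which fell. It was Myog, the myogenic factor myogenin, which averaged 399.7 ± 9.25 CPM in PERK and 486 ± 10.2 CPM in control libraries (SD, n = 3 each; edgeR adjusted p = 0.0137). The other 7 lay between -0.10 and 0.43 on the log2 scale, the highest being Mef2c (edgeR adjusted p = 0.268). Fewer cells of a kind and less RNA per cell cannot be told apart in such libraries.

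A promoter window, 250 bases before to 50 bases after the gene start, was found for 5 of the 7 members in RefSeq (build GRCr8); Fos and Jun had no entry. The windows of Junb and Jund are shown because these genes followed each other closely across libraries. The capitals mark TGACG on either strand, the core of the cAMP response element that AP-1 and ATF partners can share, its full palindrome TGACGTCA, and the TATA motif TATAAA. Junb is on the plus strand at chr19:40080876-40081175 and Jund on the minus strand at chr16:18769722-18770021.

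Junb: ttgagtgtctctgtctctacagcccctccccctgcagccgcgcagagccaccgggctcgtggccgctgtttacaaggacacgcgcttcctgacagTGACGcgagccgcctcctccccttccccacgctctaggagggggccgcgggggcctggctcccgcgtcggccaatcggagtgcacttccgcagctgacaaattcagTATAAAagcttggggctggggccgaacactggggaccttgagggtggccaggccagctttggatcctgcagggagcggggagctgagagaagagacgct

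Jund: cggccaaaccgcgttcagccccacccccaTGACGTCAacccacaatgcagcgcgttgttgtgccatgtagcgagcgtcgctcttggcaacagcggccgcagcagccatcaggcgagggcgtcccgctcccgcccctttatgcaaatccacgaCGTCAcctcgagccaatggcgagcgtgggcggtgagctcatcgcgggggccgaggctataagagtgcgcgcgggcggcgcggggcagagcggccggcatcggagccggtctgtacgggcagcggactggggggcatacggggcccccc

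Jund held TGACGTCA, which begins 221 bases before the start, as did 1.83% of 33469 windows of that length. A further TGACG on the other strand began at -98 in Jund, and Junb held 1 TGACG at -155. TGACG was found on either strand in 21.2% of all windows, and it overlaps every TGACGTCA. Of the other members, Fosl1 had 2 matches to TGACG, while Fosb and Fosl2 had 0. The AP-1 motif TGANTCA, present in 7.33% of all windows, had 0 matches in the 5 members' windows on either strand. The CArG box, the binding motif of serum response factor, also had 0, against 1.64% of all windows. TATAAA was found on either strand in 14.2% of all windows. Junb held 1 match at -49 on its own strand, and Fosb held 1 at -180 on the other strand. Such matches are letters in a window and show no binding.

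Among the Fos genes, Fos and Fosb stood more than 2-fold higher in the PERK libraries, Fosl1 stood slightly higher and Fosl2 was nearly level. Fos encodes c-Fos, the prototype immediate early partner of Jun. It had 29.9, 29.8 and 31.1 CPM in PERK replicates 1 to 3, against 15.0, 11.8 and 12.1 CPM in control replicates 1 to 3. The lowest PERK library was close to 2 times the highest control library, control replicate 1. The Fos log2 fold change was 1.22 (SE 0.09), a 2.33-fold difference. By size it stood in place 16 among 9783 entries with a mean of at least 5 CPM.

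Fosb encodes FosB, whose alternatively spliced short form, known from brain, lacks part of the activation domain. It had the fewest counts of the 7 members, at 272, 247 and 182 counts in PERK replicates 1 to 3 and 115, 101 and 74 counts in control replicates 1 to 3. Scaled, these were 2.75, 2.06 and 2.03 CPM in PERK libraries, against 1.04, 1.22 and 0.950 CPM in control libraries. PERK replicate 1 stood above the other PERK libraries, and the groups did not overlap. The log2 fold change was 1.09 with an SE of 0.21, the widest of the 7 members. In RefSeq, LOC103691049, a gene without an entry in the counts, overlaps Fosb. The strand setting of the counting is unknown here, so reads of these overlapping genes cannot be told apart.

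Fosl1 encodes Fra-1, a Fos protein without the strong activation domain of c-Fos and itself a target of AP-1. It had 13.9, 14.1 and 13.1 CPM in PERK libraries, against 12.0, 10.2 and 11.3 CPM in control libraries. The groups were separate by a narrow gap, and the log2 fold change was 0.29 (SE 0.09). Fosl2 encodes Fra-2, the second Fra protein. It had 5.50, 5.05 and 5.73 CPM in PERK libraries, against 5.09, 5.05 and 5.75 CPM in control libraries. The Fosl2 values interleaved between the groups (log2 fold change 0.03, SE 0.12), and its sign turned to -0.0009 without control replicate 2 and to -0.0052 without PERK replicate 3.

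**Figure D1:**
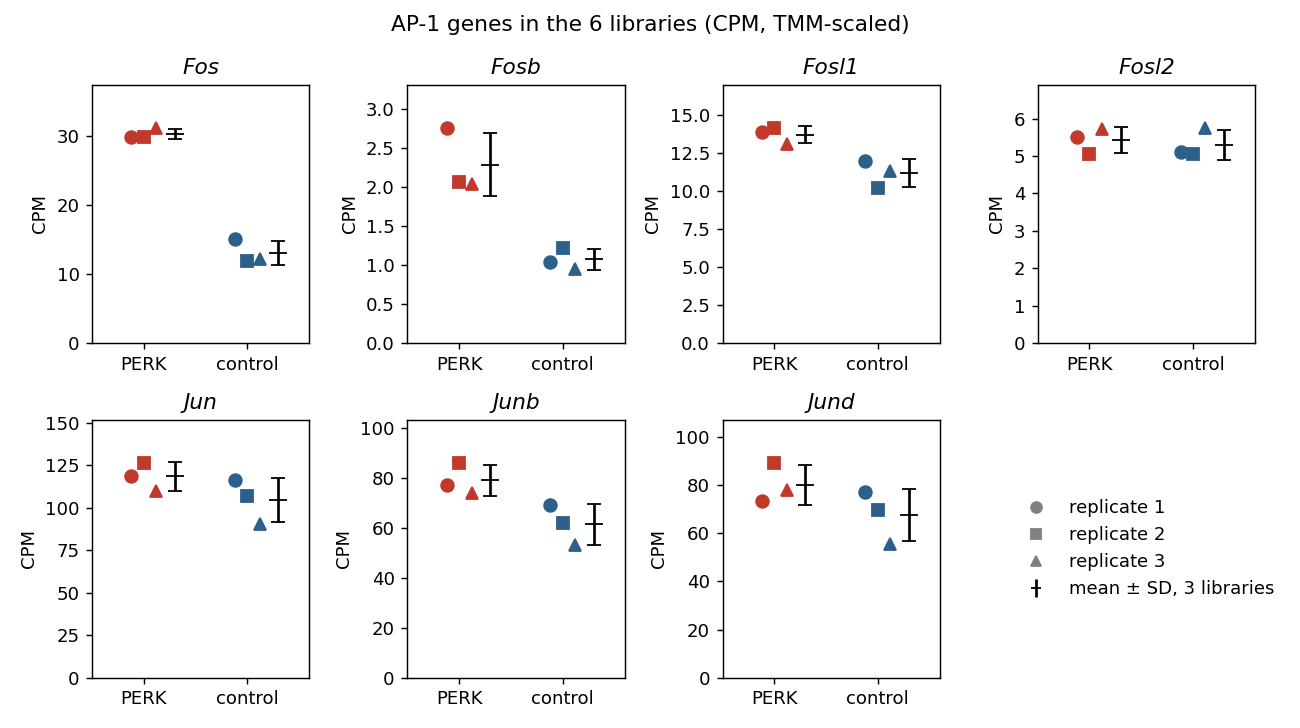
Level of each AP-1 gene in CPM in the 3 PERK libraries (red, left) and the 3 control libraries (blue, right), with the mean ± SD over 3 libraries in black and a separate axis from 0 for each gene. PERK libraries lie above all control libraries for Fos, Fosb, Fosl1 and Junb, while the groups overlap for Fosl2, Jun and Jund.

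The Jun genes had smaller fold changes than Fos and Fosb, a difference between genes that was not tested. Jun encodes c-Jun, the main substrate of the JNK kinases among AP-1 proteins. It had 118.6, 126.4 and 109.7 CPM in PERK libraries, against 116.3, 106.6 and 90.6 CPM in control libraries. PERK replicate 3 lay below control replicate 1, so the groups overlapped, and the log2 fold change was 0.18 (SE 0.09). Without control replicate 3 the Jun value was 0.09.

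Junb encodes JunB, a weaker activator that can oppose c-Jun. It had 77.2, 86.2 and 73.9 CPM in PERK libraries, against 69.3, 62.1 and 53.0 CPM in control libraries. The groups did not overlap, and the Junb log2 fold change was the largest among Jun genes, at 0.36 (SE 0.10), or 0.27 without control replicate 3. Jund encodes JunD, the Jun protein often linked to quiescent cells. It had 73.3, 89.4 and 77.9 CPM in PERK libraries, against 77.4, 69.7 and 55.8 CPM in control libraries. Control replicate 1 lay above PERK replicate 1. The Jund log2 fold change was 0.25 (SE 0.12), or 0.12 without control replicate 3 and 0.16 without PERK replicate 2.

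Of the 7 members 1 was called, Fos, in an edgeR quasi-likelihood fit across 14488 entries at an adjusted p of 0.05. That fit called 61 entries, or 0.421% of those tested, 45 of them higher (0.311%). All 7 members passed the low-count filter. All 7 fold changes lay above 0, against 48.7% of tested entries. Of the 7 members 4 had every PERK library above every control library, against 9.66% of entries. Since the family was picked on this contrast, nothing is read from these counts. The median log2 fold change was 0.29 over the 7 members and -0.0045 over all tested entries. Fos was also called in each of the 14 alternative fits, which called from 0.0621% to 2.72% of their entries, and its log2 fold change ranged from 1.15 to 1.34. DESeq2, which called 2.72%, took 2 members, Fos and Junb. The robust edgeR fit, at 0.911%, took Fos and Fosb, and limma voom, at 0.759%, took Fos. The authors' deposited table gives Fos a log2 fold change of 1.23 and the other 6 members 0.04 to 1.10. Fos is the 1 member with an adjusted p under 0.05 in the authors' deposited table, which has 0.715% of its entries higher at that threshold.

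**Figure D2:**
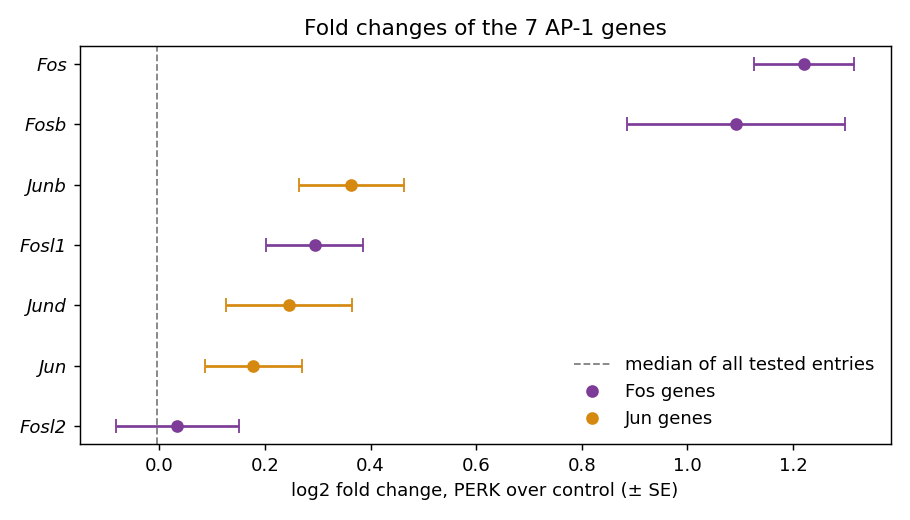
Log2 fold change, PERK over control, with its SE for each of the 7 AP-1 genes from the edgeR fit on 3 PERK and 3 control libraries; the dashed line is the median of all tested entries. Fos and Fosb lie above 1, the other 5 members between 0.03 and 0.36.

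Summed over the 4 Fos genes, the level was 52.0, 51.0 and 51.9 CPM in PERK libraries, against 33.1, 28.2 and 30.1 CPM in control libraries. The PERK libraries thus lay within a narrow range, above all control libraries, and the ratio of means was 1.69. Fos, whose rise was known when the family was picked, made up much of this sum and most of its difference. It averaged 30.25 CPM in PERK and 12.97 CPM in control libraries, where the sum averaged 51.64 and 30.5 CPM. The 3 Jun genes together had 269.2, 302.0 and 261.5 CPM in PERK libraries, against 263.0, 238.4 and 199.4 CPM in control libraries. This sum overlapped between the groups, with a ratio of means of 1.19. CPM is not corrected for transcript length, so the levels of different members were not compared as expression.

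Within the groups, the Jun genes moved together from library to library, which the choice of the family did not use. Each library's log2 CPM was set against its group mean. The deviations of Jun in PERK replicates 1 to 3 were 0.01, 0.10 and -0.11, and those in control replicates 1 to 3 were 0.16, 0.04 and -0.20. Junb had -0.03, 0.13 and -0.10 in PERK libraries and 0.18, 0.02 and -0.21 in control libraries. Jund had -0.12, 0.16 and -0.04 in PERK libraries and 0.21, 0.06 and -0.26 in control libraries. All 3 genes were thus highest in PERK replicate 2 and control replicate 1 and lowest, among control libraries, in replicate 3.

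Over these 6 deviations Pearson's r was 0.99 between Jun and Junb, 0.91 between Jun and Jund and 0.95 between Junb and Jund. Fosl2 ran the other way, with r of -0.91, -0.91 and -0.87 against Jun, Junb and Jund. Fos had r of 0.52 to 0.56 with the Jun genes, and Fosb -0.02 to 0.30. These are descriptions over 6 libraries, with 2 group means taken out. Of all tested entries 0.166% followed Jun as closely as Junb did, 2.66% as closely as Jund did, and 1.84% ran as far against it as Fosl2. Ier2 and Ier5, immediate early genes chosen after their values were seen, had r of 0.99 with Jun as well. Within each group the order of Jun and of Junb was also the order of the total counts, which were largest in PERK replicate 2 (119087414) and control replicate 1 (111052659). The part of depth in this pattern was not tested.

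**Figure D3:**
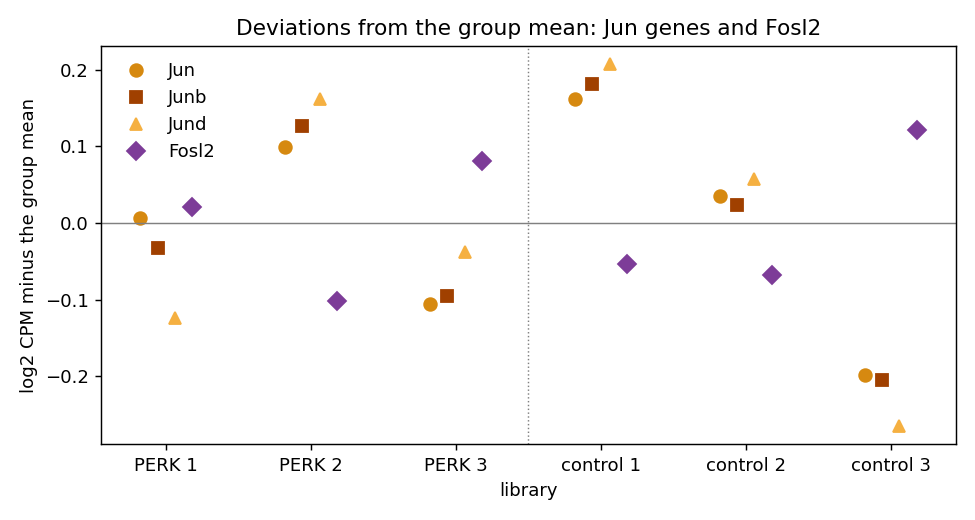
Deviation of log2 CPM from the group mean for Jun, Junb, Jund and Fosl2 in each library, PERK left and control right. The Jun genes sit at 0.16 to 0.21 in control replicate 1 and at -0.20 to -0.26 in control replicate 3, where Fosl2 is at 0.12.

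The entries most like Fos in their pattern over the 6 libraries were Arhgap22, Dnajb1, Ap2a2, Dusp1 and Acat2, out of 9026 named genes with a mean of 5 CPM or more. Their Pearson's r with Fos in log2 CPM was 0.9987, 0.9948, 0.9934, 0.9894 and 0.9877, a description over 6 libraries that, since Fos itself separates the groups, picks genes that separate them too. Arhgap22, a GTPase-activating protein gene, had 58.2, 58.2 and 59.5 CPM in PERK libraries, against 49.0, 46.6 and 47.1 CPM in control libraries. Like Fos, it was highest among control libraries in replicate 1. Its log2 fold change was 0.30, against 1.22 for Fos. Dnajb1, an HSP40 co-chaperone gene, had 0.36, Dusp1, which encodes a MAP kinase phosphatase, 0.38, Acat2, of cholesterol precursor metabolism, 0.31, and Ap2a2, an endocytic adaptor subunit gene, 0.17.

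No partner gene was called by the main edgeR fit. Of 14 genes for bZIP proteins that can pair with Fos or Jun, 9 were tested and 0 passed, with 2 at an unadjusted p under 0.05, a level that 11.2% of all tested entries reached. DESeq2 and the robust edgeR fit called 1 each, against 2.72% and 0.911% of all tested entries, and limma voom called 0. The median log2 fold change was 0.04. Mafk and Jdp2, which had the highest CPM of them, encode a small Maf protein without an activation domain and a repressive Jun partner. Mafk had 44.4, 50.2 and 48.2 CPM in PERK libraries, against 42.0, 41.6 and 36.9 CPM in control libraries (log2 fold change 0.25, edgeR adjusted p = 0.205). Jdp2 was at 0.04. Atf3, a stress-induced Jun partner chosen after its values were seen, had 5.65, 4.65 and 4.92 CPM in PERK libraries, against 2.91, 3.18 and 2.32 CPM in control libraries. Its groups did not overlap, and it differed by 0.85 on the log2 scale (SE 0.16), with an edgeR adjusted p of 0.0737. The 5 untested partners did not pass the low-count filter.

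Upstream of Fos and Jun act the ERK, JNK and p38 cascades and the factors SRF, ELK, CREB and MEF2. Of 31 such genes 28 were tested and edgeR called 0, with 6 at an unadjusted p under 0.05 (11.2% of all tested entries). DESeq2, which called 2.72% of all tested entries, took 3, and limma voom 0. The list's median log2 fold change was 0.05, with 20 above 0 and 8 below, where 48.7% of all tested entries lay above 0. Every PERK library lay above every control library in 10 of the 28, against 9.66% of all tested entries, and below in 0. Map2k2, an ERK kinase gene, averaged 168 ± 6.55 CPM in PERK and 161.5 ± 7.97 CPM in control libraries (SD, n = 3 each). Srf, chosen after its values were seen, was at 0.20 on the log2 scale (SE 0.06, edgeR adjusted p = 0.225).

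Genes linked to mRNA decay and protein turnover of Fos and Jun showed no call either. Of 13 tested, edgeR, DESeq2 and limma voom each called 0. No member reached an unadjusted p under 0.05, and the list median was -0.0033. Cnot1, the scaffold of the deadenylase complex, averaged 202 ± 6.14 CPM in PERK and 204 ± 11.1 CPM in control libraries. Rfwd2, which encodes the c-Jun ubiquitin ligase COP1, averaged 144 ± 0.580 CPM in PERK and 139.9 ± 5.10 CPM in control libraries. Zfp36, which encodes tristetraprolin, a protein that destabilises Fos mRNA, was at 0.27 (SE 0.13, edgeR adjusted p = 0.491); it was chosen after its values were seen.

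Of 20 known AP-1 target genes 16 were tested and 1 rose, Hbegf, against 0.311% of all tested entries called higher. The median log2 fold change was 0.05 over the list, with 9 above 0 and 7 below, where 48.7% of all tested entries lay above 0. In this list 6 of the 16 tested genes had an unadjusted p under 0.05, against 11.2% of all tested entries. DESeq2 called 5, the robust edgeR fit 3 and limma voom 2, against 2.72%, 0.911% and 0.759% of all tested entries. Hbegf encodes heparin-binding EGF-like growth factor, a ligand of the EGF receptor. It had 36.6, 38.1 and 38.6 CPM in PERK libraries, against 27.5, 27.3 and 25.6 CPM in control libraries. Hbegf differed by 0.50 on the log2 scale (SE 0.05; adjusted p = 0.00917 in edgeR), and the call ended without PERK replicate 3 (adjusted p = 0.0512). Of the 16 tested genes 5 had every PERK library above every control library, against 9.66% of all tested entries. Another 3 had every PERK library below, against 1238 of the 14488 tested entries. Chosen after their values were seen, the 3 lower ones were Spp1, which encodes osteopontin, and the cytokine genes Ccl2 and Il6. Spp1 was at -0.17 (edgeR adjusted p = 0.275), Il6 at -0.35 (0.503) and Ccl2, under 1 CPM in each library, at -1.55 (0.645). Plaur, the urokinase receptor gene, and Cd44, a hyaluronan receptor gene, chosen in the same way among the higher ones, were at 0.25 and 0.19 (edgeR adjusted p = 0.066 and 0.0926). The matrix metalloproteinase genes Mmp3, Mmp10 and Mmp13 and the urokinase gene Plau, classical AP-1 targets, did not pass the low-count filter.

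Among 20 other immediate early genes 19 were tested and 5 rose, against 0.311% of all tested entries called higher. Of the 19, 17 lay above 0, against 48.7% of all tested entries, and the median was 0.35. At an unadjusted p under 0.05 there were 9, against 11.2% of all tested entries. DESeq2 called 7 and limma voom 6, against 2.72% and 0.759% of all tested entries. This list holds Atf3 and Zfp36 of the lists above, and its rise was known when it was written. The rises included Btg2, an anti-proliferative gene, at 66.3, 66.5 and 66.3 CPM in PERK libraries, against 41.4, 40.0 and 44.5 CPM in control libraries (log2 fold change 0.66, edgeR adjusted p = 0.00322). Cyr61, a secreted matrix protein gene, was at 0.32 and Dusp1 at 0.38 (edgeR adjusted p = 0.0137 for each). Their fold changes were smaller than those of Fos and Fosb; whether they differ was not tested. The list had 3 calls when control replicate 1 was left out, 2 when control replicate 2 was, and 1 when any other library was.

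**Figure D4:**
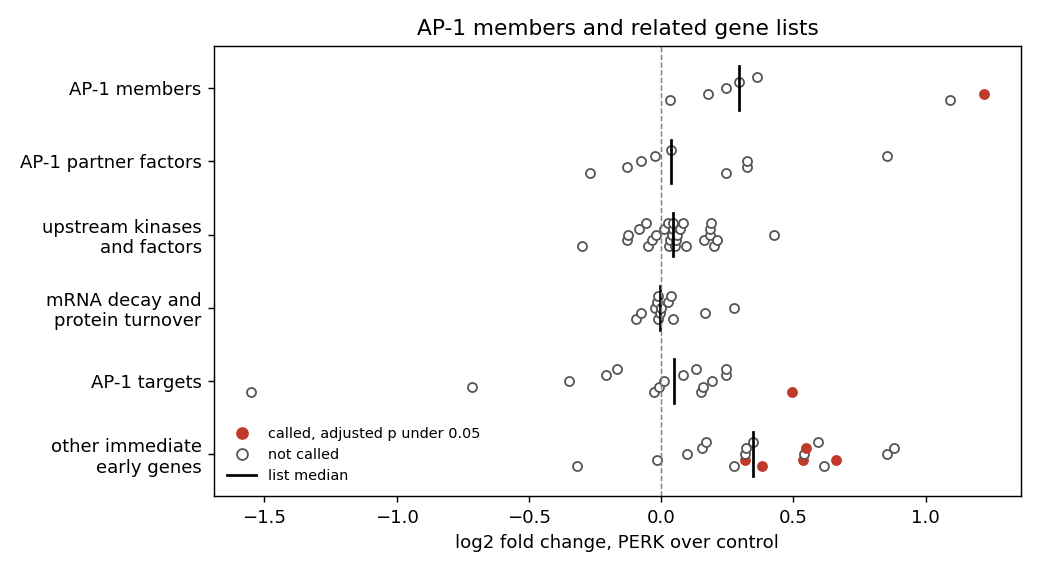
Log2 fold change, PERK over control, of each tested gene among the AP-1 members and 5 related lists; filled points were called in the edgeR fit across 14488 entries and black lines are list medians. The medians are 0.29 for AP-1 members, 0.35 for other immediate early genes and between -0.0033 and 0.05 for the other 4 lists.

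Markers of other cell types were also listed. Only Tek was tested among the 5 endothelial markers listed in the counts, and their summed level was 0.625 to 0.983 CPM in PERK libraries and 1.32 to 1.99 CPM in control libraries. Tek had 0.792 CPM on average in PERK libraries and 1.40 CPM in control libraries (edgeR adjusted p = 0.225). The 6 leukocyte markers summed to 9.88 to 11.1 CPM in PERK and 8.72 to 12.3 CPM in control libraries, and the 6 epithelial markers to 52.1 to 54.5 CPM in PERK and 49.7 to 52.7 CPM in control libraries, with Krt19 at 0 in all 6 libraries. The 6 smooth muscle and fibroblast markers summed to 11900 to 13610 CPM in PERK and 11310 to 12850 CPM in control libraries. A few genes carried most of these sums. Over the 6 libraries Col1a1 averaged 9439 TMM-scaled CPM, Tagln 2018 and Acta2 862, but Myh11 8.36, Dcn 7.18 and Pdgfra 0.206. Cd14 averaged 9.20 CPM, and 3 of the leukocyte markers had at most 18 counts in any library. Krt8 averaged 40.4 and Krt7 12.0 CPM, and 3 of the epithelial markers, Krt19 included, had at most 18 counts in any library. Of the 13 markers of other cell types tested, edgeR, DESeq2 and limma voom called 0, with 2 at an unadjusted p under 0.05, against 11.2% of all tested entries. Their part in the AP-1 values was not tested.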

How the data were processed

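RNA of 6 H9c2 libraries, 3 PERK and 3 control, was sequenced after Illumina TruSeq preparation, per the labels' protocols. The authors' deposited table holds counts per gene as whole numbers, taken unchanged. Bowtie 0.12.2 and mm9, a mouse build, stand in the submitters' processing notes, although gene symbols are rat ones; no source used here gives the counting program. In the same table the authors' normalized signal equals the counts divided by 1 factor per library and was not used in a test. From the authors' own comparison, log2 fold changes and adjusted p-values were read, while the deposited test score and unadjusted p-values were left aside. A second table has 6 columns that match no label and was not used.

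Counts were filtered (filterByExpr, minimum count 10), which left 14488 entries, TMM-scaled and tested with edgeR 4.0.16 (R 4.3.3) by the quasi-likelihood test, group as the only term, with Benjamini-Hochberg adjustment at 0.05. DESeq2 1.42.0, limma 3.58.1 voom, a robust fit, other filters and scalings, counts divided by 6, a replicate block and fits without each library were alternatives. Log2 CPM used a prior count of 2. SEs came from the fold change and F. The main edgeR fit was tried on simulated counts without such steps as the small counts here show, so the trial does not cover that feature. Precision rests on 77923398 to 119087414 counts a library, in steps of about 6, and spread covers these libraries only.

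The members, lists and tests were chosen with earlier results of these data known. Named list genes are up to 3 called members by smallest p, or the 2 of highest mean CPM; others are said to be chosen after their values were seen. A gene that this rule takes is not reported here and stays in the counts. Likeness to Fos was ranked among entries of at least 5 CPM. Promoter letters came from RefSeq GRCr8, and no file coordinates were used.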

Additional observations from a re-analysis of the deposited data

How the results depend on the processing

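Fos was called in all 14 alternative fits and the sign of the fold change held for each member but Fosl2. DESeq2 called 2 members, Fos and Junb, and the robust fit 2, Fos and Fosb. The 61 calls over all entries became 94 without a low-count filter, 394 with DESeq2, 110 with limma voom, 132 with robust estimation and 93 after division of counts by 6. Every omission of a single library lowered the number, to between 12 (PERK replicate 1 omitted) and 38 (control replicate 1 omitted). The 6 called genes of the 5 lists became 16 with DESeq2, 10 with the robust fit and 1 to 4 with 1 library left out. Over all tested entries, same-numbered libraries did not deviate together (r of -0.06, 0.01 and 0.03). Low-count entries weigh as much as others in this r, so it does not settle whether those libraries were paired. With the replicate number as a block 9 calls were left, of them 1 list gene, and Hbegf had adjusted p = 0.069. The cause of these changes was not tested; a fit with 1 library fewer has less data. Depth limits Fosb most, with 74 counts in its lowest library.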
